A study of Saccharomyces cerevisiae with 8 samples.

Results

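The genes described here encode the DNA replication machinery of budding yeast, the enzymes that make its deoxynucleotides, and cohesin, the ring that holds sister chromatids together. They were taken from a fixed list of 45 genes: DNA polymerases, PCNA (the sliding clamp of the polymerases), its loader RFC, the single-strand binding protein RPA, the MCM2-7 helicase, GINS, CDC45, ORC1, ORC6, CDC6, RNR1 to RNR4, SML1, CDC21, CDC9, RAD27 and the cohesin subunits. Of these, 42 were among the 4928 measured transcripts, and POL1, POL2 and RNR3 were not. All 42 passed the filter on low counts, which left 4901 genes in all.

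Newly made RNA was measured by 4tU-seq, in which living cells take up 4-thiouridine for a short time and the RNA that carries it is purified and sequenced. The haploid strain of Saccharomyces cerevisiae was of mating type alpha and carried ade2::hisG, his3Δ200, leu2Δ0, lys2Δ0, met15Δ0, trp1Δ63 and ura3Δ0. All 4 groups shared srb10Δ::KanMX and a centromeric TRP1 plasmid, pSH599, with srb10as-1 (Y236G), an allele whose product, the Cdk8 kinase of Mediator, can be inhibited by the ATP analogue 1-NA-PP1. Cultures in a medium lacking tryptophan were started at an OD600 of 0.1, were grown at 30 °C to 0.8, and received 6 µM 1-NA-PP1 or the same volume of DMSO, its solvent, for 12 minutes. The steady state groups were then labelled with 5 mM 4tU for 5 minutes, and the heat shock groups were first moved to 37 °C for 12 minutes. If the heat shock followed the treatment, those cultures had longer in DMSO or 1-NA-PP1. Time of exposure and temperature then cannot be told apart. Each of the 4 groups (DMSO or 1-NA-PP1, steady state or heat shock) had 2 libraries. The labels do not say that these came from separate cultures, so the p-values measure the spread between these libraries, which may be technical. There is no group with a wild-type SRB10 gene here, so an action of 1-NA-PP1 on other targets cannot be told apart from inhibition of Srb10.

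Budding yeast makes the mRNA of most replication genes in a burst around the G1/S transition, just before the proteins are needed. The factor MBF (Mbp1 with Swi6) drives this burst through the MluI cell cycle box (MCB) in their promoters, and the related factor SBF acts through the SCB element. Several licensing genes of the MCM family and CDC6 are made earlier, at the M/G1 boundary, through Mcm1 and early cell cycle boxes (ECB). The cultures were not synchronised according to the labels, so a lower level can mean fewer cells in the phase that makes an mRNA or less of it made per cell, and bulk RNA cannot tell these apart.

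Promoter stretches of members with large and small changes are shown first, because the MCB core was found in a larger share of the members than of all genes. Coordinates and sequences are from RefSeq's R64 assembly of the yeast genome, the same as the files' sacCer3, and each stretch is written 5′ to 3′ on the strand of its gene. Capitals mark the MCB core ACGCGT, which reads the same on both strands, in the 300 bases before the annotated transcript start. POL30 (chrII:425931-425986, minus strand), RNR1 (chrV:298619-298674, plus), MCD1 (chrIV:444302-444421, plus), CDC21 (chrXV:467680-467772, minus) and RAD27 (chrXI:225973-226080, minus) stand for members with deep falls under heat shock. POL3 (chrIV:276681-276736, plus) and RFA2 (chrXIV:48142-48209, plus) are set beside them because they hold the same core and moved little. PRI2, with 1 core, is not shown, though with DMSO its log2 change of -1.49 was deeper than the -1.42 of RAD27.
POL30: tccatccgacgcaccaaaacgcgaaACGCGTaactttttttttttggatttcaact
RNR1: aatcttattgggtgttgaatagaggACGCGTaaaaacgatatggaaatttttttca
MCD1: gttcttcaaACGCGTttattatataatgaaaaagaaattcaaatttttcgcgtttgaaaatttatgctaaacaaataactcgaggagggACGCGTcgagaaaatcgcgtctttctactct
CDC21: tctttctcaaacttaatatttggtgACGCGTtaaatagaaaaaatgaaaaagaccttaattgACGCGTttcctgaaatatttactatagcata
RAD27: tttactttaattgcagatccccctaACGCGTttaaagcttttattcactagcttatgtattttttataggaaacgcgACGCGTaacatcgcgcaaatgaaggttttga
POL3: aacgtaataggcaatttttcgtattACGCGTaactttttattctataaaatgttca
RFA2: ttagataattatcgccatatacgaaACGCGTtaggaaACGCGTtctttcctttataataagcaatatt

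The MCB core stood in the window of 21 of the 42 members (50.0%) and of 194 of the 4928 features (3.94%). It occurred at 2 places in 8 members, namely CDC21, RAD27, MCD1, RFA1, RFA2, POL12, CDC45 and the cohesin subunit gene IRR1. The SCB core CNCGAAA, searched on both strands, was found in 18 members (42.9%) and in 16.4% of all features. It overlapped an MCB core in 1 member, POL30, and neither other motif searched overlapped an MCB core. The stress response element core AGGGG, bound by Msn2 and Msn4, was found in 6 members (14.3%) and in 23.0% of all features, and RNR2 held it at 2 places. A match is a description of the letters and not evidence of binding.

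The MCM2-7 genes held no MCB core, and several held the ECB core, the Mcm1 site with paired arms, instead. This search was added after the values were seen. Its core was found in 6 members (14.3%), namely POL3, CDC6, MCM3, MCM5, MCM6 and MCM7, and in 1.48% of all features. Capitals mark the ECB cores below, which adjoin each other in MCM7 and CDC6. MCM7 (chrII:625518-625599, plus) and CDC6 (chrX:69120-69201, plus) hold it at 2 places each, and MCM5 (chrXII:691376-691441, plus) holds it once.
MCM7: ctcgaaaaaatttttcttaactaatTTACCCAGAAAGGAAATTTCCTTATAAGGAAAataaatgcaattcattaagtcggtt
CDC6: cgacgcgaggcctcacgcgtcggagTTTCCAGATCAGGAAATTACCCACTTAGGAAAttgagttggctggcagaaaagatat
MCM5: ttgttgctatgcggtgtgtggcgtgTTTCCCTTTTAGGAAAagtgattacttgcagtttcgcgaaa
The CDC6 stretch also holds the MCB core, in lower case, before its ECB cores.

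The steady state libraries held 60372371 to 65134744 counts and the heat shock libraries 14680275 to 17743527. Member counts ran from 48 to 40320 per gene and library, so counting error was small for most of them. The labels of the conditions were borne out by HSP104, SSA4, HSP26 and HSP12, of which 4 of 4 were called higher under heat shock with DMSO and with 1-NA-PP1. The mating type alpha markers summed to 923 to 3980 CPM per library and the mating type a markers to at most 41.8 CPM, and ADE2, LEU2, URA3 and MET17 had 0 counts in all libraries. With DMSO 3 of 3 alpha markers fell under heat shock, from a sum of 3580 to 3980 CPM to one of 923 to 970 CPM, and 3 of 5 a markers rose, and the part of this in the results below was not tested.

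Levels are given as CPM, edgeR's depth-normalised counts after TMM scaling of each library, and per kilobase of annotated transcript where genes are compared with each other. With DMSO at steady state the median member had 72.7 CPM per kb, close to the 74.5 CPM per kb of all tested genes. The level per kb was lowest for PSF1, a GINS subunit, and highest, at 809 ± 47.0 (SD, n = 2), for SML1, whose small protein inhibits ribonucleotide reductase. After SML1 came MCD1 at 180 ± 9.73, MCM7 at 173 ± 3.37, SMC1 at 144 ± 8.38 and MCM2 at 143 ± 2.90 CPM per kb, and MCD1 and MCM7, like SMC1 and MCM2, differ by less than their spread. Subunits of one complex differed in level per kb: RFC1 stood at 114 ± 0.283 and RFC5 at 22.8 ± 0.212 CPM per kb. RNR1, the large subunit of ribonucleotide reductase, stood at 139 ± 13.4 beside 55.8 ± 0.362 for RNR2, a small subunit. The transcripts differ in length, with 2900 bases for RFC1 and 1130 for RFC5, and 2911 for RNR1 and 1383 for RNR2. The part of length in the recovery of labelled RNA was not tested.

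**Figure D1:**
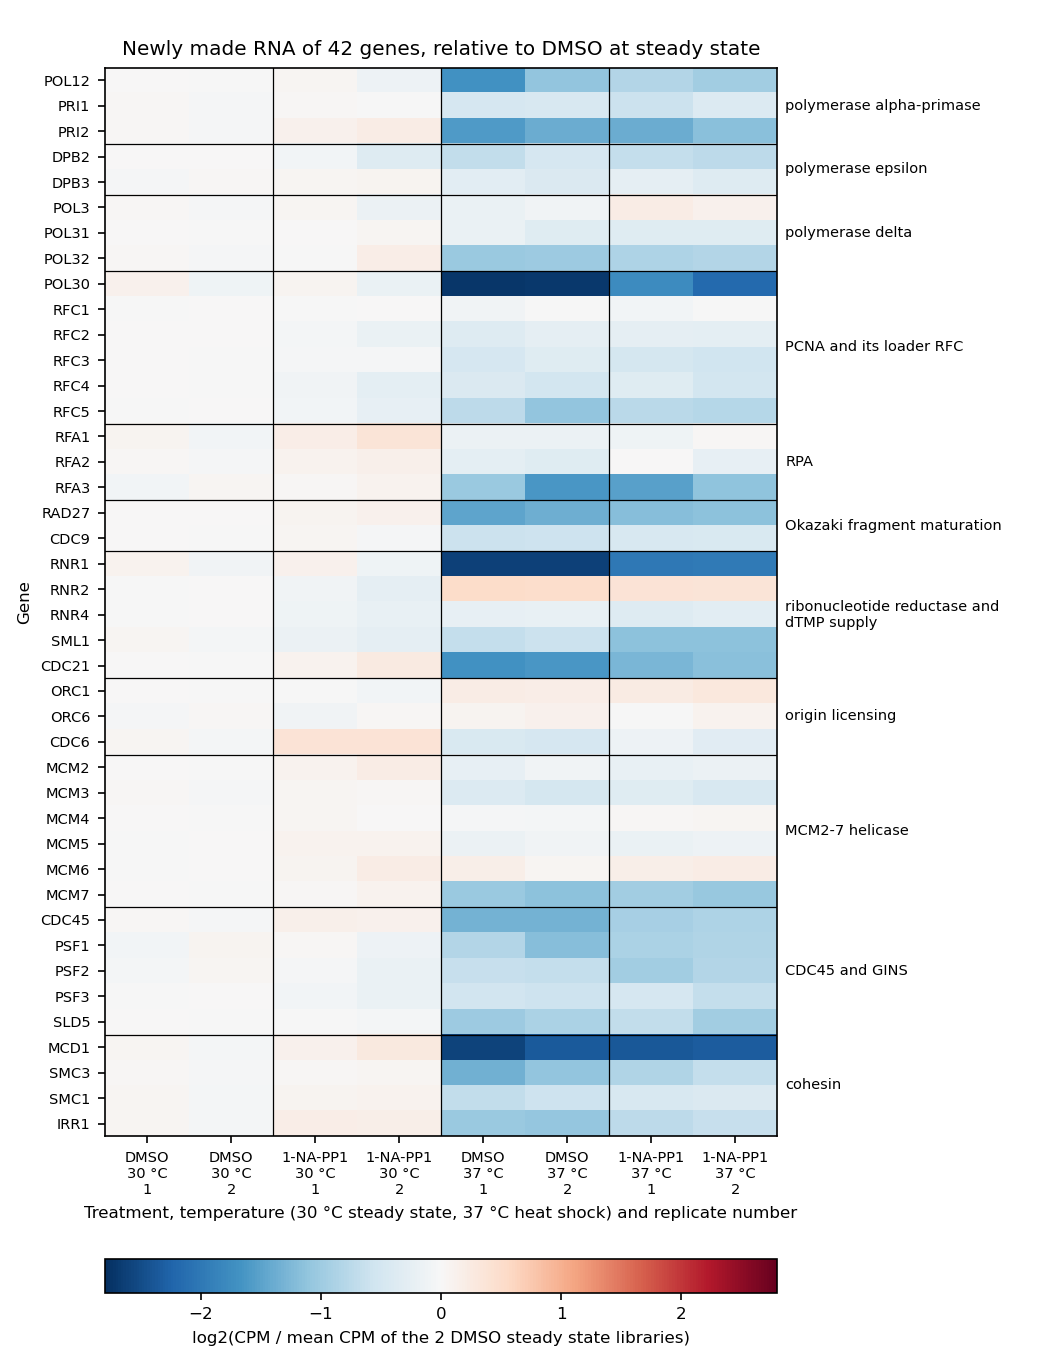
Colours give, for each of the 42 genes (lines, grouped by role) and each of the 8 libraries (columns), the log2 of CPM over the mean CPM of both DMSO steady state libraries, on a linear scale from blue (lower) to red (higher). The heat shock columns are darkest blue for POL30, RNR1 and MCD1, while RNR2 is red and RFC1, MCM4 and ORC6 are near white.

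The first question was what heat shock does to the members with DMSO, that is, without the inhibitor. Of the 42 members 32 fell and 2 rose (edgeR quasi-likelihood test, adjusted p under 0.05), where 28.9% of all tested genes fell and 29.6% rose. The median member changed by -0.56 on the log2 scale, and the median of all genes by -0.01. The deepest falls were those of the clamp, of the large subunit of ribonucleotide reductase and of the cohesin subunit that is cut at anaphase. All 42 members had libraries that did not overlap between heat shock and steady state, 38 lower and 4 higher, where 43.0% of all genes were lower and 40.9% higher without overlap.

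PCNA, encoded by POL30, holds polymerases on DNA and is loaded by RFC. POL30 (YBR088C), at 424949 to 425806 on the minus strand of chromosome II, had 48.3 and 40.9 CPM at steady state and 6.79 and 6.90 under heat shock. The heat shock libraries were far below the steady state ones, and POL30 fell by 2.70 ± 0.175 on the log2 scale (SE), 6.52-fold lower, with an edgeR adjusted p of 1.03e-05. Of the 5 RFC genes, 4 fell, by 0.30 to 0.91, and RFC1, the large subunit, did not pass the test at -0.06 ± 0.0617.

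Ribonucleotide reductase makes deoxynucleotides from ribonucleotides, and its large subunit gene RNR1 is a classical MBF target. RNR1 (YER070W), at 298911 to 301822 on the plus strand of chromosome V, had 431 and 376 CPM at steady state and 66.2 and 65.6 under heat shock. The groups lay far apart, and RNR1 fell by 2.61 ± 0.103, 6.13-fold lower. RNR2 (YJL026W) moved the other way, from 76.8 and 77.5 CPM to 111 and 108, a rise of 0.50 ± 0.0776 (edgeR adjusted p = 0.000899). The comparison's own 4 libraries were also scaled by the factors behind the authors' normalised counts, called the authors' factors below. The rise of RNR2 then read 0.19 with an edgeR adjusted p of 0.409, where all genes had a median of -0.32. RNR4, the other small subunit gene, had 114 and 116 CPM before and 97.8 and 99.1 after, and fell by 0.22 ± 0.0727, the smallest of the called falls. The call of RNR4 was lost without either DMSO steady state library, at adjusted p of 0.107 and 0.157. SML1 (YML058W) fell by 0.63 ± 0.0708, from 505 and 465 CPM to 304 and 322. CDC21 (YOR074C), which encodes thymidylate synthase, the enzyme of dTMP synthesis, had 61.5 and 60.8 CPM at steady state and 19.0 and 19.9 under heat shock, and fell by 1.65 ± 0.0972.

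Cohesin closes around sister chromatids with the Smc1 and Smc3 arms, the cleavable subunit Mcd1 (Scc1) and Irr1 (Scc3). Its 4 genes all fell, by 0.64 to 2.47. MCD1 (YDL003W), at 444602 to 446490 on the plus strand of chromosome IV, had 353 and 327 CPM at steady state and 56.2 and 66.8 under heat shock, 5.54-fold lower with a log2 change of -2.47 ± 0.101. SMC3, with 203 and 192 CPM before and 77.3 and 91.5 after, fell by 1.23 ± 0.0988, and IRR1, with 244 and 229 before and 115 and 111 after, by 1.07 ± 0.0698. SMC1 went from 574 and 529 CPM to 341 and 367 and fell least, by 0.64 ± 0.0701.

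At the replication fork the called falls of polymerase, primase, RPA and flap enzyme genes ran from 0.25 to 1.49. PRI2, the large primase subunit, fell from 160 and 151 CPM to 51.6 and 59.5, by 1.49 ± 0.103, and POL12, the B subunit of polymerase alpha, from 135 ± 2.38 to 52.4 ± 14.7 (SD, n = 2), by 1.37 ± 0.168. RAD27, the flap endonuclease of Okazaki fragments, went from 152 and 152 CPM to 54.3 and 59.3 and fell by 1.42 ± 0.0758. RFA3, the smallest RPA subunit, fell by 1.29 ± 0.189, where RFA2 fell by 0.31 ± 0.103 and RFA1 stood at -0.16 ± 0.0890 without passing. Of the polymerase delta genes, POL32 fell by 1.03 ± 0.0861, while the catalytic subunit POL3 had 168 and 159 CPM at steady state and 143 and 152 under heat shock, -0.15 ± 0.0905. With the authors' factors RFA1 and POL3 passed, at -0.47 and -0.45 with edgeR adjusted p of 0.0416 and 0.046. The polymerase epsilon genes DPB2 and DPB3 fell by 0.57 and 0.35. The calls of RFA2, RFC2, DPB3 and POL31, with falls of 0.25 to 0.35, were lost when either DMSO steady state library was left out, at edgeR adjusted p of 0.0749 to 0.139.

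The helicase that unwinds DNA at the fork is made of the MCM2-7 ring, Cdc45 and GINS. Cdc45 and the 4 GINS genes all fell, with CDC45 going from 124 and 117 CPM to 48.4 and 48.0, by 1.32 ± 0.0737, and the GINS genes by 0.56 to 0.98. PSF2 and SLD5 overlap an opposite-strand transcript over 45.1% and 32.6% of their length, and the strand of counting is not stated, so their values are uncertain. In the ring the subunits parted. MCM7 (YBR202W) had 489 and 475 CPM at steady state and 236 and 217 under heat shock, and fell by 1.09 ± 0.0702, and MCM3 fell by 0.43 ± 0.0699. MCM2, MCM4, MCM5 and MCM6 did not pass the test, with -0.17 ± 0.0708, -0.04 ± 0.0577, -0.13 ± 0.0606 and 0.12 ± 0.0722, and MCM6 had 336 and 339 CPM before and 381 and 351 after. MCM2 passed when DMSO heat shock replicate 2 or any 1-NA-PP1 library was left out, at -0.17 to -0.30, and MCM5 when DMSO heat shock replicate 2 or either 1-NA-PP1 heat shock library was left out, at -0.20 to -0.24. With no filter on low counts MCM2 and MCM5 passed as well, at -0.23 and -0.20 with edgeR adjusted p of 0.0203 and 0.0228. The median of all genes was -0.08 in that fit, in place of -0.01. It was -0.08 or -0.09 when any heat shock library was left out. With the authors' factors MCM2 passed at -0.47 with an edgeR adjusted p of 0.0491. MCM6 read -0.20 with the authors' factors, at which all genes had a median of -0.32.

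Of the licensing genes, CDC6, whose protein loads the MCM ring on origins, had 83.5 and 77.1 CPM at steady state and 59.3 and 58.2 under heat shock, and fell by 0.45 ± 0.0881. ORC1, the ATPase subunit of the origin recognition complex, had 230 and 226 CPM at steady state and 264 and 259 under heat shock, a rise of 0.20 ± 0.0624 (edgeR adjusted p = 0.0247) that read -0.11 with the authors' factors. The ORC1 call was lost when any DMSO library or any 1-NA-PP1 heat shock library was left out, with adjusted p of 0.0997 to 0.193, and with no filter on low counts, at 0.13 with an adjusted p of 0.106. ORC6 did not pass, at 0.09 ± 0.0795, and its sign turned with the authors' factors, at -0.21. All genes had a median of -0.32 with those factors and of -0.08 with no filter on low counts.

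**Figure D2:**
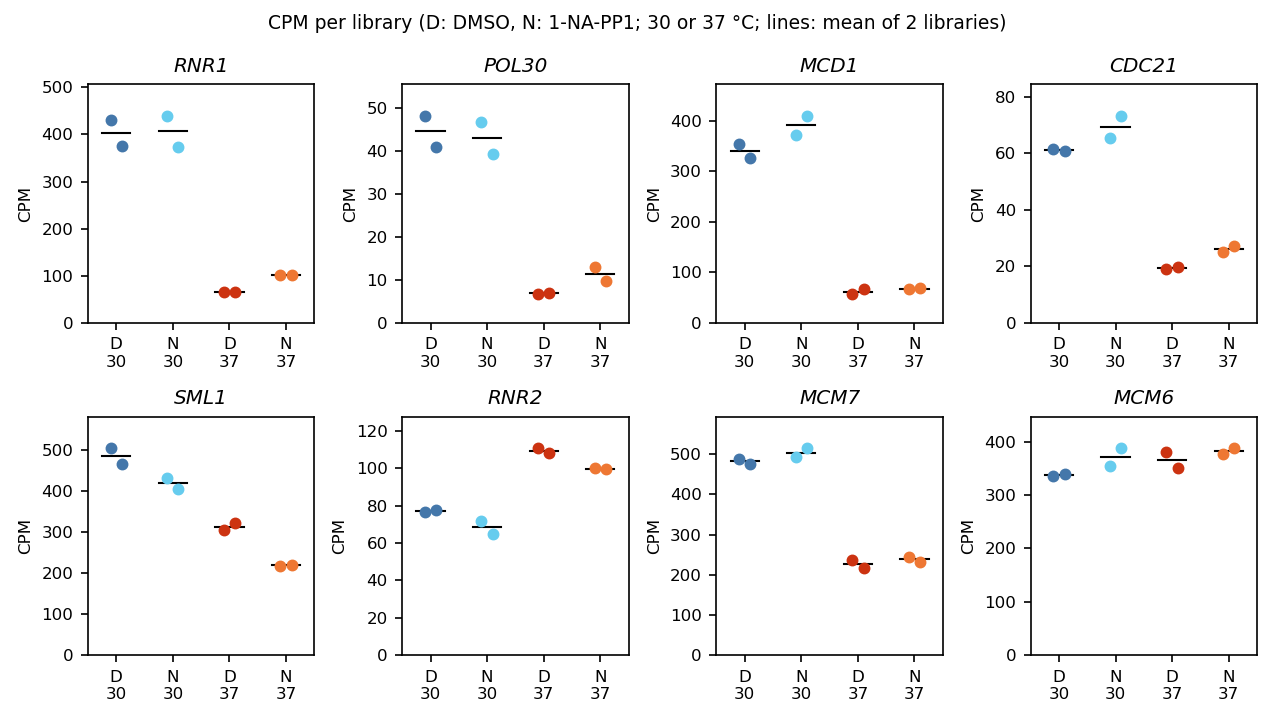
CPM of 8 genes in each library (points; D is DMSO, N is 1-NA-PP1, 30 °C is steady state, 37 °C is heat shock), with a line at the mean of 2 libraries and each axis starting at 0. RNR1, POL30, MCD1 and CDC21 drop at 37 °C in both treatments, RNR2 is higher, and MCM6 stays within 336 to 389 CPM.

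The second question was whether the response to heat shock holds with the kinase inhibitor, in libraries not shared with the first comparison. With 1-NA-PP1, 31 members fell and 2 rose, where 28.1% of all genes fell and 25.3% rose, and the median member changed by -0.50 beside -0.02 for all genes. The members called lower with DMSO and those called lower with 1-NA-PP1 had 28 in common, 87.5% of the first list and 90.3% of the second. The matching shares over all genes were not counted, so this overlap cannot be read as particular to the members. RFA2, RFC2, RFC4 and RNR4 were called only with DMSO, and MCM2, MCM5 and RFA1 only with 1-NA-PP1, and the difference of the changes passed the test for none of them. Of these, RFA2 was also called with 1-NA-PP1 without heat shock replicate 1, at -0.36, and RFC4 and RNR4 without steady state replicate 2, at -0.32 and -0.22. The RFA1 call was lost without heat shock replicate 1 or steady state replicate 2, at -0.25 and -0.22, and those of DPB2, DPB3 and PSF3 without heat shock replicate 2, at -0.45, -0.34 and -0.34. The log2 changes correlated across the 42 members with a Pearson r of 0.958 and a Spearman rho of 0.961, and across all 4901 genes with a Pearson r of 0.892. Genes are not independent replicates, so these values describe the pattern only.

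RNR1 went from 440 and 374 CPM to 101 and 102 and fell by 2.00 ± 0.100, and POL30 went from 46.9 and 39.4 to 13.1 and 9.83 and fell by 1.91 ± 0.163. MCD1 fell by 2.54 ± 0.101, from 371 and 410 CPM to 65.9 and 68.1, and was the member with the deepest fall. CDC21 fell by 1.41 ± 0.0946, PRI2 by 1.43 ± 0.103, RFA3 by 1.37 ± 0.188, RAD27 by 1.27 ± 0.0749 and MCM7 by 1.08 ± 0.0701. RNR2 rose by 0.55 ± 0.0777 and ORC1 by 0.31 ± 0.0624. These read -0.10 and -0.34 with the authors' factors, with which all genes had a median of -0.66. MCM4 and MCM6 were again near 0, at 0.01 ± 0.0576 and 0.04 ± 0.0721. POL3 stood at 0.23 ± 0.0902, with 169 and 145 CPM at steady state and 189 and 178 under heat shock, and an edgeR adjusted p of 0.0637. It was called higher by DESeq2 and with its size factors in edgeR, at 0.25 (DESeq2 called 28.2% of all genes higher), and without 1-NA-PP1 steady state replicate 1, at 0.34, and read -0.43 with the authors' factors.

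The authors' deposited tables, made with their own factors, list 36 members lower and 0 higher under heat shock with DMSO, where 41.8% of all features are lower. With 1-NA-PP1 the authors' deposited table lists 23 members lower, where 18.0% of all features are lower. In edgeR with those factors and the comparison's own 4 libraries, 8 members were called lower with 1-NA-PP1 in place of 31, and the share of all genes called lower went from 28.1% to 3.74%. The factors were 1 and 1.47 for replicates 1 and 2 of 1-NA-PP1 at steady state, though replicate 2 had 0.945 times the counts of replicate 1. Under heat shock they were 0.379 and 0.542, at 0.263 and 0.267 times those counts. The part of this in the lost calls was not tested. With the authors' factors the median of all genes moved by -0.31 with DMSO and by -0.64 with 1-NA-PP1. Relative to that median the members' median kept -0.55 with DMSO and -0.49 with 1-NA-PP1, where TMM gave -0.55 and -0.47.

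**Figure D3:**
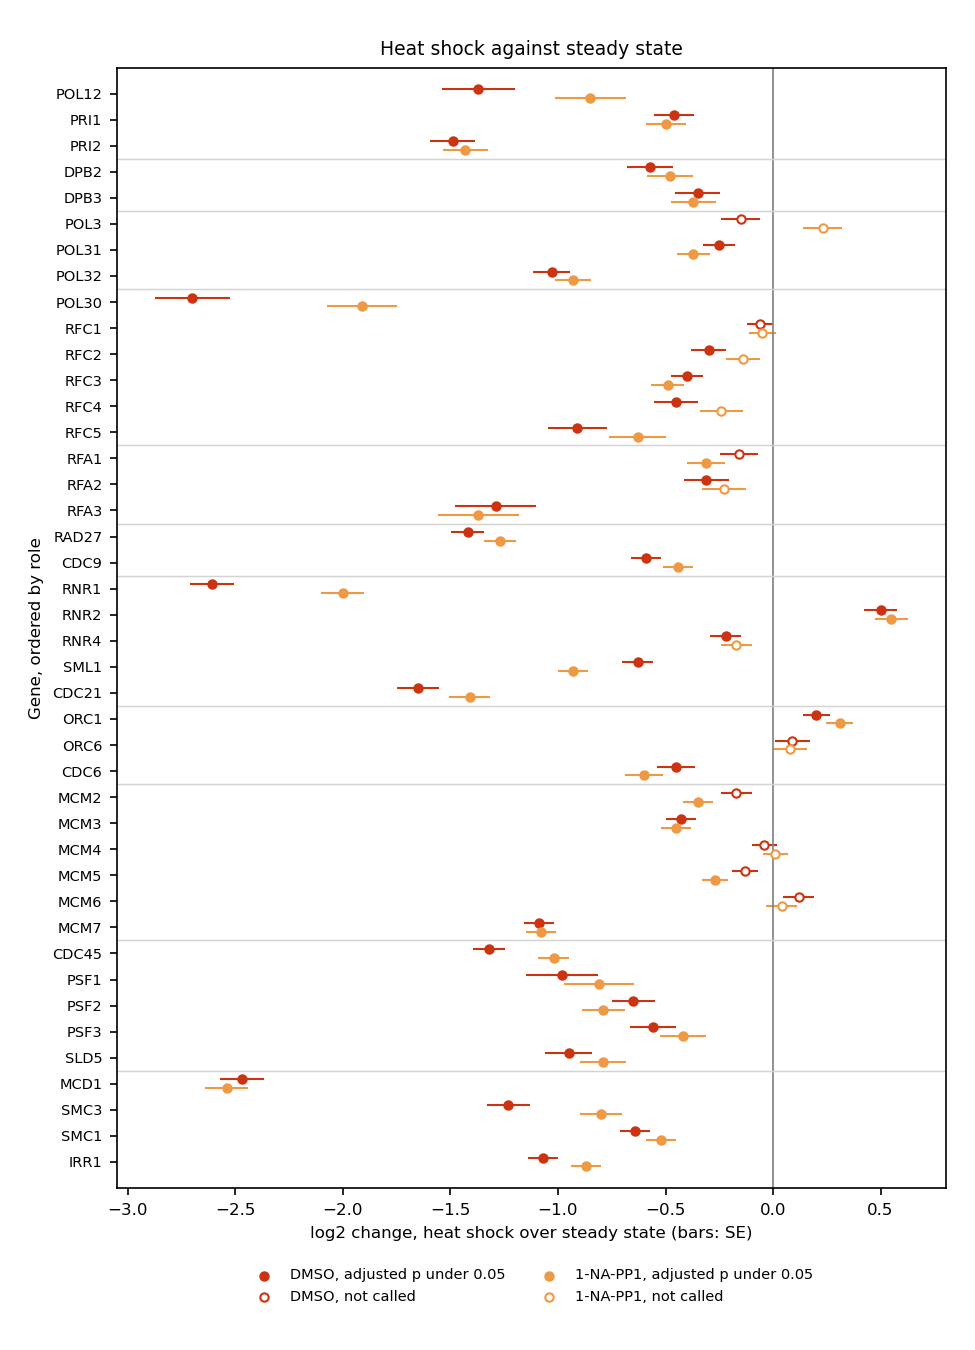
Log2 change under heat shock for each of the 42 genes (top to bottom by role, groups divided by lines), with DMSO (dark red) and 1-NA-PP1 (orange), bars of 1 SE, and filled points for calls. POL30, RNR1 and MCD1 lie near -2 or below with both treatments, and the MCM genes other than MCM7 and MCM3 lie near 0 or above -0.4.

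The change under heat shock was set against the number of MCB cores, as a description. With DMSO the median change was -1.34 for the 8 members with 2 cores, -0.59 for the 13 with 1 core and -0.35 for the 21 with none. Called falls numbered 7 of 8, 12 of 13 and 13 of 21 in the same order. Other genes with the core had a median of -0.35 (-0.45 with 2 or more cores and -0.33 with 1), and 94 of 172 of them (54.7%) fell. Other genes without it had a median of 0.00 and 27.5% fell. RFA3 and MCM7 fell by 1.29 and 1.09 with no core, while RFA2 fell by 0.31 with 2 cores. RFA1 stood at -0.16 with 2 cores and POL3 at -0.15 with 1, and neither was called. The 6 members with the ECB core had a median of -0.29 and 3 of them fell, beside 0.09 and 31.3% for other genes with it. With 1-NA-PP1 the medians were -0.94, -0.52 and -0.37 for 2, 1 and no MCB cores.

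**Figure D4:**
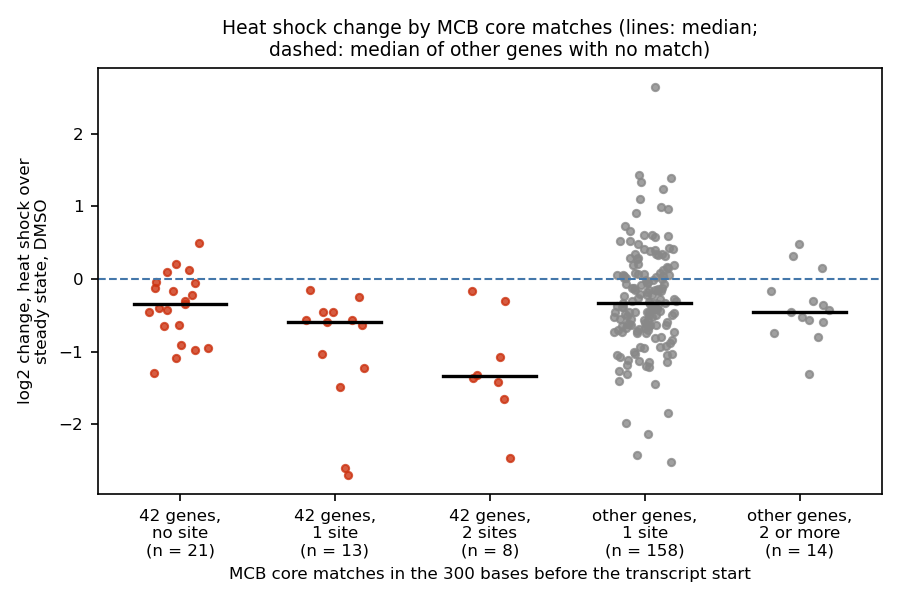
Log2 change under heat shock with DMSO (vertical axis) for members (red) and other genes (grey) by the number of MCB cores in the 300 bases before the transcript start, with a line at each median. The median of members goes from -0.35 with no core to -1.34 with 2, and the dashed line marks other genes without a core.

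The third question was what inhibition of the kinase does to the members under heat shock. SML1 was the 1 member called, lower with 1-NA-PP1, where 0.122% of all tested genes were called lower and 0.204% higher. It had 304 and 322 CPM with DMSO and 218 and 220 with 1-NA-PP1, so the groups did not overlap, and the log2 change was -0.51 ± 0.0714 with an edgeR adjusted p of 0.0447. That call was lost without any DMSO library or any 1-NA-PP1 heat shock library, with edgeR adjusted p between 0.0715 and 0.401, while the change stayed between -0.46 and -0.55. It was also lost with the replicate number as a block, at -0.51 with an edgeR adjusted p of 0.0973, and with the authors' factors, at -1.14 with an adjusted p of 0.276.

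Other members had higher values with 1-NA-PP1 under heat shock without passing. RNR1 had 66.2 and 65.6 CPM with DMSO and 101 and 102 with 1-NA-PP1, a change of 0.62 ± 0.101 with an edgeR adjusted p of 0.0612. POL30 had 6.79 and 6.90 CPM with DMSO and 13.1 and 9.83 with 1-NA-PP1, 0.75 ± 0.189 with an adjusted p of 0.124 by edgeR. Both groups of libraries were apart in each case. CDC21 stood at 0.42 ± 0.101 and MCD1 at 0.13 ± 0.100, and RNR2 at -0.13 ± 0.0784. POL12, SMC3, CDC45 and IRR1, chosen after their values were seen, stood at 0.48 ± 0.170, 0.48 ± 0.0993, 0.42 ± 0.0746 and 0.38 ± 0.0701.
The same values read against the authors' factors, with which all genes had a median of -0.62, were -0.17 for POL12, -0.17 for SMC3, -0.20 for CDC45, -0.24 for IRR1 and -0.21 for CDC21. RNR1 read 0.006 and POL30 0.16 with those factors, and MCD1 -0.52.

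With the 4 heat shock libraries alone and TMM, RNR1 passed at 0.62 with an edgeR adjusted p of 0.0211. That fit called 0.556% of all genes higher. DESeq2 called 6 members higher, namely RNR1, POL30, CDC21, CDC45, SMC3 and IRR1, and SML1 lower, where it called 2.59% of all genes higher and 2.04% lower. The 1-NA-PP1 steady state libraries are not in this comparison. Without replicate 1 or replicate 2 of that group the changes stayed the same, at 0.62 for RNR1 and 0.75 for POL30. Calls rose in those fits for members and over all genes, in a model whose groups share 1 estimate of the spread. A total of 29 of 42 members had positive changes, where 50.1% of all genes did. Libraries did not overlap for 18 members higher and 5 lower, where 23.2% and 22.8% of all genes did not overlap. Members with 2 MCB cores had a median of 0.32, those with 1 had 0.21 and those with none 0.01. Other genes had a median of 0.17 with 2 or more cores and 0.08 with 1. The MCM2-7 genes lay between -0.03 and 0.09.

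The fourth question was the same at steady state. None of the 42 members passed, and 0 of the 4901 genes did (0.0%) by edgeR, where an unadjusted p under 0.05 was reached by 3 members higher and 1 lower, beside 874 genes higher and 734 lower, 32.8% of all genes. DESeq2 called CDC6 higher and SML1 lower, beside 8.69% and 11.4% of all genes. CDC6 had 83.5 and 77.1 CPM with DMSO and 104 and 104 with 1-NA-PP1, so the groups did not overlap, with a change of 0.37 ± 0.0855 and an edgeR adjusted p of 0.0679. SML1 had 505 and 465 CPM with DMSO and 432 and 405 with 1-NA-PP1, -0.21 ± 0.0700 with an edgeR adjusted p of 0.0858. RNR1, at 431 and 376 CPM beside 440 and 374, overlapped fully, with 0.01 ± 0.0947, and POL30 with -0.05 ± 0.144. The members' median was 0.02 and that of all genes 0.05. Without 1-NA-PP1 steady state replicate 1, edgeR called 2 members higher and 3 lower, among them CDC6 at 0.38 and, lower, SML1 at -0.26 and RNR2 at -0.25. That fit called 904 genes higher (18.5%) and 808 lower (16.5%), larger shares than among the members.

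**Figure D5:**
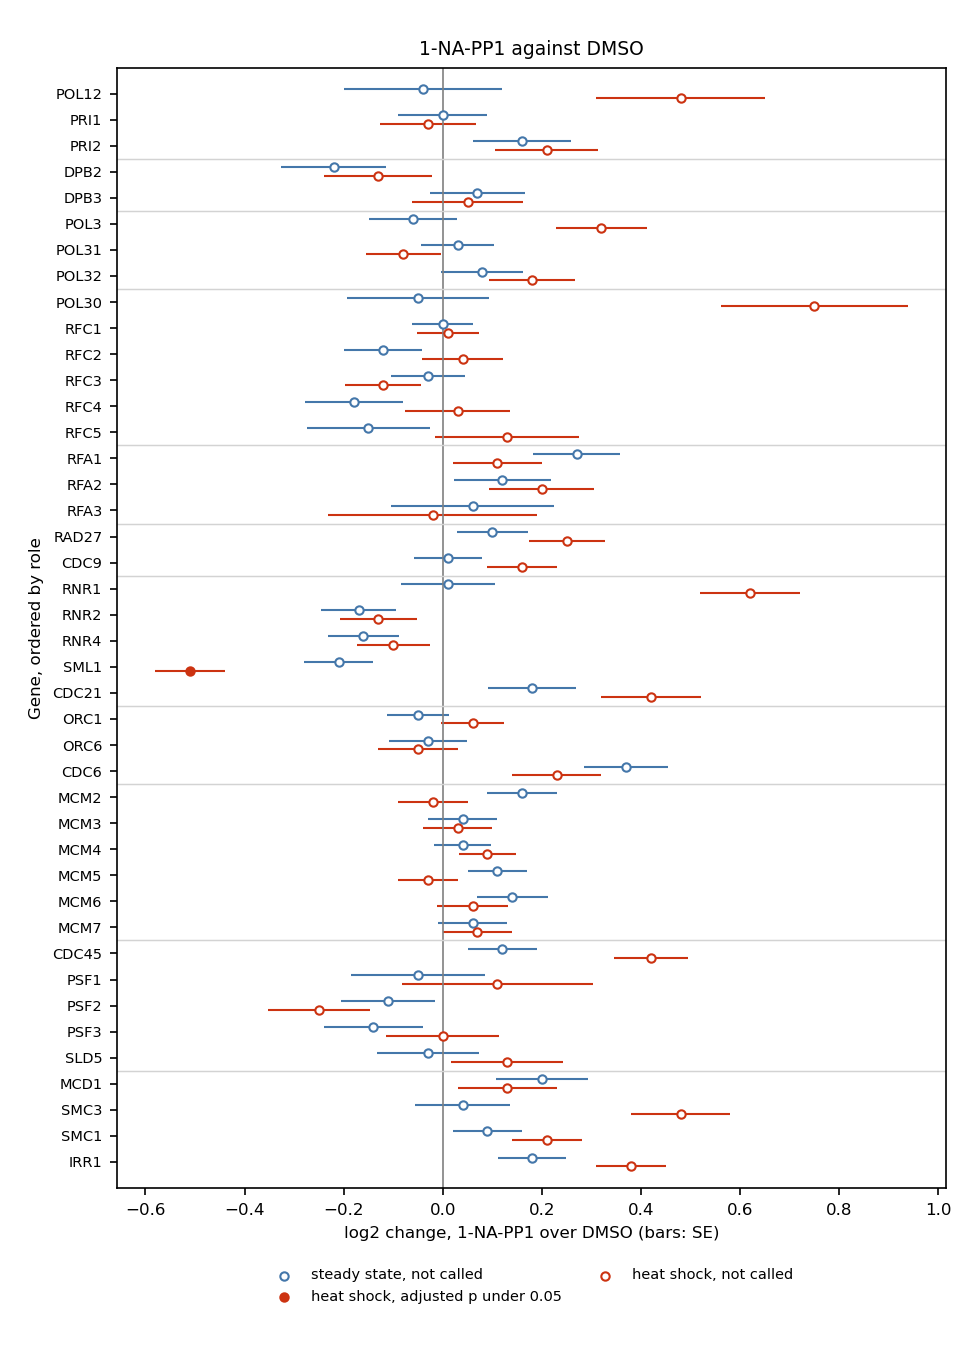
Log2 change of 1-NA-PP1 over DMSO for each of the 42 genes at steady state (blue) and under heat shock (red), with bars of 1 SE, filled points for calls and open points otherwise. Under heat shock SML1 is filled at -0.51 and POL30 and RNR1 lie farthest to the right, at 0.75 and 0.62, while at steady state CDC6 is farthest, at 0.37.

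The last comparison was the difference between the heat shock changes with 1-NA-PP1 and with DMSO. No member passed (0 of 42), where 1 of the 4901 genes did, 0.0204%, in the lower direction; unadjusted p under 0.05 was reached by 5 members higher and 1 lower, beside 278 genes higher and 383 lower, 13.5% of all genes. The values were 0.79 ± 0.238 for POL30, 0.61 ± 0.138 for RNR1, 0.24 ± 0.134 for CDC21 and -0.30 ± 0.0999 for SML1, each with an edgeR adjusted p of 0.357 except CDC21 at 0.429. DESeq2 called RNR1 higher, with an adjusted p of 0.0368, beside 0.204% of all genes. Without 1-NA-PP1 steady state replicate 1, which left 1 library in that group, the difference read 0.92 for POL30 and 0.73 for RNR1. Calls rose in that fit for members and over all genes.

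Genes of the same processes outside the member list were described in the same way. Under heat shock with DMSO, where 28.9% of all tested genes fell and 29.6% rose, 16 of 25 other replication genes fell and 3 rose. Their median was -0.33. RNH201, a subunit of RNase H2, which removes ribonucleotides from DNA, fell by 2.11 ± 0.122, while TAH11 (Cdt1), which brings the MCM ring to origins, rose by 0.61 ± 0.0828. Of 9 other nucleotide supply genes 8 fell and 1 rose, and DUN1, a checkpoint kinase that acts on Sml1, fell by 1.20 ± 0.103. WTM1, which holds the small reductase subunits in the nucleus, rose by 0.80 ± 0.0760. Among 6 other cohesion genes 3 fell and 1 rose, and PDS5, a regulator of the ring, fell by 1.27 ± 0.0948. Of 7 checkpoint and repair genes 4 fell and 2 rose, with a median of -0.38. The 12 G1/S genes outside replication all fell, with a median of -1.57, and CLB6, a cyclin of S phase, fell by 3.56 ± 0.210, with 43.7 ± 3.84 CPM at steady state and 3.77 ± 1.51 under heat shock (SD, n = 2). These 12 genes had a median of -1.39 with 1-NA-PP1. In the inhibitor comparison under heat shock 1 of the 12 was called, CLN1, a G1 cyclin, higher by 0.56 ± 0.0734. Of all tested genes 0.204% were called higher in that comparison. These lists were chosen with earlier results of these data known.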

How the data were processed

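Counts deposited by the authors are whole reads for each annotated coding transcript of sacCer3. Their normalised tables, also deposited, hold a signal, which is the count over 1 factor per library. The authors' heat shock tables give a log2 fold change and an adjusted p-value per gene, per the file headers. A further deposited file (unit other) holds transcript coordinates. The submitters' processing notes name HTSeq, SAMtools, STAR 2.5.2b, cutadapt 1.9.1 and DESeq2. Whether reads were counted by strand is not given in the sources used here, and 15 members overlap an opposite-strand transcript or gene.

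The counts were tested with edgeR 4.0.16 in R 4.3.3. Genes passing filterByExpr were scaled by TMM, and 1 quasi-likelihood model with a mean for each of the 4 groups took all 8 libraries. Each test was two-sided, with Benjamini-Hochberg adjustment over 4901 genes, and a gene was called at an adjusted p under 0.05. Exact permutation of 2 against 2 libraries gives a p of at least 0.333, so every adjusted p comes from this fit or, where named, from DESeq2 1.42.0. The alternatives were DESeq2's size factors, DESeq2, no filter on low counts, each library left out, the replicate number as a block, and the 4 libraries of a comparison alone with TMM or the factors behind the deposited normalised counts. The model was also run on simulated data with far fewer changed genes than heat shock changed here, so that run does not test the scaling. TMM takes most genes as unchanged, so changes in total RNA synthesis are not measured.

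Members and lists were chosen with earlier results of these data known. Named members were all called ones where 30 or fewer were called, otherwise the 15 largest rises and falls, plus RNR1 to RNR4, SML1, CDC21, CDC6, POL30, MCD1 and MCM2-7. Every other gene named was chosen after its values were seen. The promoter search was planned on a table of promoters that was not used here, and windows were read from the R64 genome, 300 bases before each annotated transcript start. The deposited factor file for the inhibitor comparison at 37 °C repeats the numbers of the file for heat shock with DMSO. None of the factor files was used, and factors were taken from the raw and normalised counts themselves.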

Additional observations from a re-analysis of the deposited data

How the results depend on the processing

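The falls under heat shock kept their direction under every alternative run, for all members called lower. With DMSO the calls lower stayed within 1.5 times of 32, and the calls higher, 2 in all, became 1 with no filter on low counts, 0 with the authors' factors and 1 to 2 with a library left out. With 1-NA-PP1 the authors' factors gave 8 lower and 0 higher, where 3.74% of all genes were lower in place of 28.1%. For 1-NA-PP1 under heat shock, 1 member lower became 0 with the replicate block, 0 with the authors' factors and 0 to 1 with a library left out, and 0 higher became 1 with the comparison's own libraries and TMM, 6 with DESeq2 and 0 to 7 with a library left out. At steady state DESeq2 called 1 higher and 1 lower, and leaving out a library gave 0 to 2 higher and 0 to 3 lower, all in the fit without 1-NA-PP1 steady state replicate 1, where 18.5% of all genes were called higher and 16.5% lower. For the difference of the changes, DESeq2 called 1 higher, beside 0.204% of all genes, and the count moved when a library was left out. Over all genes, calls for 1-NA-PP1 under heat shock were 10 higher and 6 lower, 2 and 2 with the replicate block, and 127 and 100 with DESeq2. The replicate numbers are not stated to mark a shared culture. The replicate differences of the groups, taken over genes, correlated at -0.31 to 0.26. With 2 libraries per group this cannot tell whether same-numbered libraries shared a culture or day. The block changed no other call of a named member.

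Signs turned as follows, and the cause was not tested apart from the shift in the median of all genes given in the report. Under heat shock with DMSO and the authors' factors ORC1 read -0.11, ORC6 -0.21 and MCM6 -0.20. With 1-NA-PP1 they gave POL3 -0.43, RNR2 -0.10, ORC1 -0.34, ORC6 -0.56, MCM4 -0.63 and MCM6 -0.58, and no filter on low counts gave MCM4 -0.0002. For 1-NA-PP1 under heat shock they gave POL12 -0.17, CDC21 -0.21, CDC6 -0.38, CDC45 -0.20, MCD1 -0.52, SMC3 -0.17 and IRR1 -0.24. At steady state they gave RNR1 -0.22, CDC21 -0.10 and MCD1 -0.08, and RNR1 read -0.0001 with DESeq2 or its size factors, -0.04 with no filter and -0.03 with its own 4 libraries and TMM. With a library left out, MCM6 ranged from -0.006 to 0.12, ORC6 from -0.001 to 0.13, and, with 1-NA-PP1, MCM6 from -0.02 to 0.11 and MCM4 from -0.01 to 0.03. At steady state POL30 ranged from -0.18 to 0.08 and RNR1 from -0.11 to 0.12, and in the difference of the changes RNR2 ranged from -0.02 to 0.12, MCD1 from -0.14 to 0.12 and CDC6 from -0.20 to 0.003.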
